A study of Mus musculus with 2 samples.

Results

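Iron and heme handling genes were examined in leukocytes of the mouse lung, with and without bleomycin (BLM) injury. The 9 genes, of 24785 that had a UMI in at least 1 library, were taken by name, with earlier results of these data known: Hmox1, Blvra and Blvrb of heme breakdown, Fth1 and Ftl1 of ferritin, the exporter Slc40a1, the phagosomal transporter Slc11a1, and the receptors Tfrc and Cd163. Living CD45+ cells were sorted from lungs of wild-type C57BL/6N mice and sequenced one cell at a time on the BD Rhapsody system, which tags every captured transcript with a unique molecular identifier (UMI). The BLM library held cells taken 15 days after 50 micrograms of bleomycin, which damages the lung epithelium and is followed by fibrosis, had been given into the trachea of mice 10 to 16 weeks old. The naive library held cells of lungs without treatment. Each library was 1 pool of 3 mice with no map from cell to mouse used here, so mice, library, sequencing run and treatment cannot be told apart.

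Iron reaches cells mainly as iron bound to transferrin, which the transferrin receptor (Tfrc) takes up, and, in macrophages, as heme from engulfed red cells or from hemoglobin bound to haptoglobin, which the receptor Cd163 clears. Heme oxygenase 1 (Hmox1) opens the heme ring and frees iron and biliverdin, and the biliverdin reductases (Blvra and Blvrb) turn biliverdin into bilirubin. Free iron is stored in ferritin, a shell of heavy (Fth1) and light (Ftl1) chains, or leaves the cell through ferroportin (Slc40a1), the only known iron exporter of mammals, while Slc11a1 (Nramp1) moves iron out of the phagosome. Alveolar macrophages and red-cell-clearing macrophages are known for high ferritin and heme oxygenase. C57BL/6 mice carry a loss-of-function missense allele of Slc11a1, which UMI counts do not read.

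The deposited tables listed 4714 BLM barcodes with 22490782 UMIs and 4062 naive barcodes with 18019004 UMIs, at medians of 2380.0 and 2701.5 UMIs, and 22 cell indexes occurred in both libraries. After filters on genes, mitochondrial UMIs and doublet scores, 4390 BLM and 3807 naive cells were kept. Each cell was placed in a class by marker genes that did not include any of the 9 genes, and 329 BLM cells (7.49%) and 132 naive cells (3.47%) reached no class. A class name therefore stands for cells resembling that class. Classes with 50 or more cells in each library were compared, with BLM and naive cell numbers of 998 and 451 for neutrophils, 596 and 794 for B cells, 797 and 668 for T cells, 125 and 247 for NK cells, 363 and 656 for alveolar macrophages, 478 and 73 for C1q macrophages (interstitial macrophages that express complement C1q), 273 and 236 for classical monocytes, 148 and 211 for nonclassical monocytes, 59 and 94 for type 1 conventional dendritic cells (cDC1), and 52 and 72 for type 2 (cDC2). Clusters of each library gave the same class to 98.7% or more of the lymphocytes, neutrophils and alveolar macrophages, but to 78.5% of the BLM C1q macrophages and 66.3% of the BLM classical monocytes. Epithelial markers stood at 21 counts per 1000000 UMIs (CPM) in BLM alveolar macrophages and at 108 in naive ones, and their part in the results was not tested.

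Messages of iron genes can carry an iron-responsive element (IRE), a short hairpin that the iron regulatory proteins bind when iron is low. Such binding blocks translation when the hairpin lies in the 5′ UTR and stabilises the message when it lies in the 3′ UTR. A hairpin therefore marks a gene that can be under this known control. The protein-coding transcripts of the GENCODE M21 annotation on GRCm38 were searched on the sense strand over their whole length, coding sequence included. The pattern was CNNNNNCAGTGN followed by 5 bases that pair with the 5 bases before the loop (G to T pairs allowed). A match anywhere in a transcript counted. The pattern was found in 4 of the 9 genes and in 294 of 21877 protein-coding genes (1.34%), and in 0 of 50 other iron and heme genes. Capitals mark the loop of 6 bases. The sites were, in order, Fth1 at chr19:9982738-9982754 (plus strand, 5′ UTR), Ftl1 at chr7:45459785-45459801 (minus strand, 5′ UTR), Slc40a1 at chr1:45925471-45925487 (minus strand, 5′ UTR), and Tfrc, with 4 hairpins in its 3′ UTR on the plus strand, at chr16:32631225-32631241, chr16:32631604-32631620, chr16:32631669-32631685 and chr16:32631716-32631732.
Fth1: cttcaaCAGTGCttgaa
Ftl1: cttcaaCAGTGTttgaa
Slc40a1: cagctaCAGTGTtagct
Tfrc site 1: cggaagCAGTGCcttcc
Tfrc site 2: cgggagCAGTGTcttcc
Tfrc site 3: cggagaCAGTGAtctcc
Tfrc site 4: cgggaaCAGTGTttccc
The ferritin sites differ only in the last loop base, and the stems of the Tfrc sites differ from one another. A match is a description of the letters and not evidence of binding in these cells. Hmox1, Blvra, Blvrb, Slc11a1 and Cd163 had no match. The pattern needs all 5 pairs, so a hairpin with a mismatch or an extra base in that stem is missed. A gene without a match, among the 9 or the 50 others, is therefore not shown to lack an IRE.

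Levels are the summed UMIs of a class over the total UMIs of its cells, in CPM, and BLM was compared with naive by the log2 ratio of those levels with its 95% interval. With 1 library per group no test was possible, since cells are no replicates. The intervals cover counting error only, treat UMIs of 1 cell as independent, and say nothing of the spread between mice or libraries. A gene was called higher or lower where the levels differed 2-fold or more and both libraries together held 20 or more UMIs. UMI counts are not scaled for transcript length, so levels are compared between classes and libraries and not between genes.

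Of 90 pairs of gene and class, 61 had 20 or more UMIs, 6 were 2-fold or more higher in BLM, 5 were 2-fold or more lower, and 50 lay within 2-fold. The log2 interval lay off 0 in 36 of the 61. That share was not computed over all genes, and intervals narrow as UMIs increase, so nothing is read from this count about iron genes. C1q macrophages held 5 of the 11 calls, with Fth1 and Ftl1 higher (11.8% of 9638 genes were) and Slc40a1, Tfrc and Cd163 lower (14.1% of genes were), among 9 genes with enough UMIs. Alveolar macrophages had Hmox1 and Slc11a1 higher, among 9, against 5.22% of 10620 genes, and 0 lower against 9.77%. Neutrophils had Tfrc higher and Slc40a1 lower, among 6, against 4.27% and 6.71% of 5531 genes. Classical monocytes had Fth1 higher, among 7, against 6.56% of 7878 genes, and 0 lower against 4.81%. In cDC2, Cd163 was lower, among 4, against 8.88% of 4975 genes, and 0 were higher against 6.89%. There were 0 calls in B cells (6 genes with enough UMIs), T cells (5), NK cells (3), nonclassical monocytes (7) and cDC1 (5), where 1.20%, 2.84%, 1.92%, 3.40% and 5.45% of all genes were higher and 4.66%, 3.68%, 7.46%, 6.27% and 9.49% lower. The median log2 ratio of the members with enough UMIs was 0.44 in alveolar macrophages and 0.61 in classical monocytes, against -0.19 and -0.00 over all genes, and 0.05 in C1q macrophages, against -0.10. It was 0.40 in T cells, against -0.08. In the remaining classes it lay between -0.17 (B cells) and 0.16 (neutrophils and NK cells), against -0.12 to 0.05 over all genes.

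**Figure D1:**
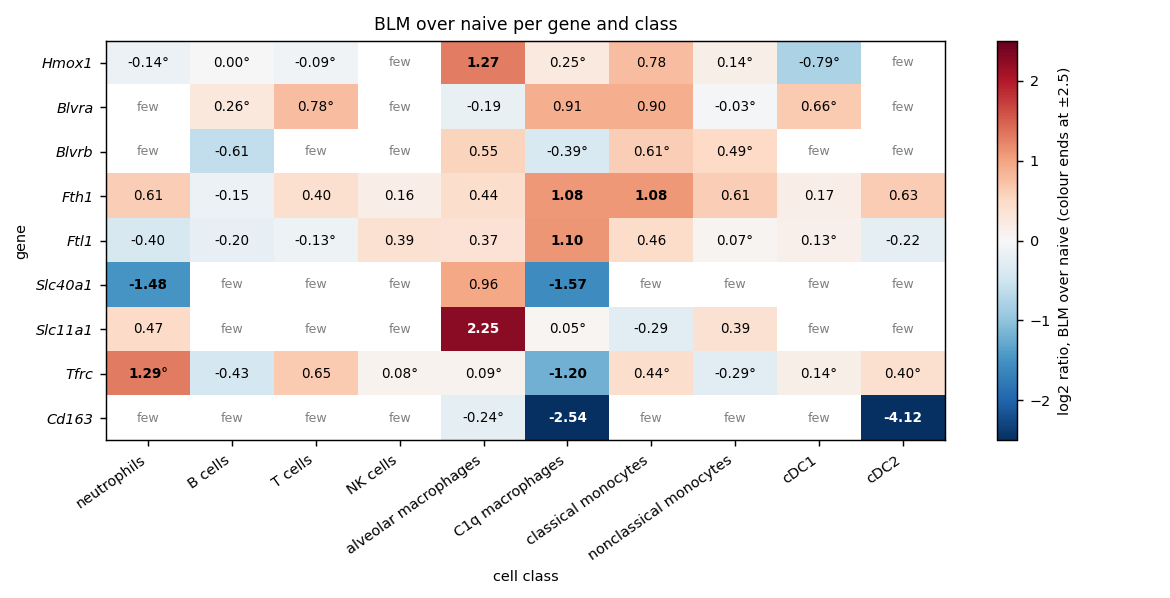
Log2 ratio of BLM over naive levels for the 9 genes (vertical) in 10 cell classes (horizontal), where bold numbers are 2-fold or more, a ring marks a counting interval that includes 0, and "few" stands for under 20 UMIs over both libraries. Both ferritin genes are higher and Slc40a1, Tfrc and Cd163 lower in the C1q macrophages, the class with most calls.

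**Figure D2:**
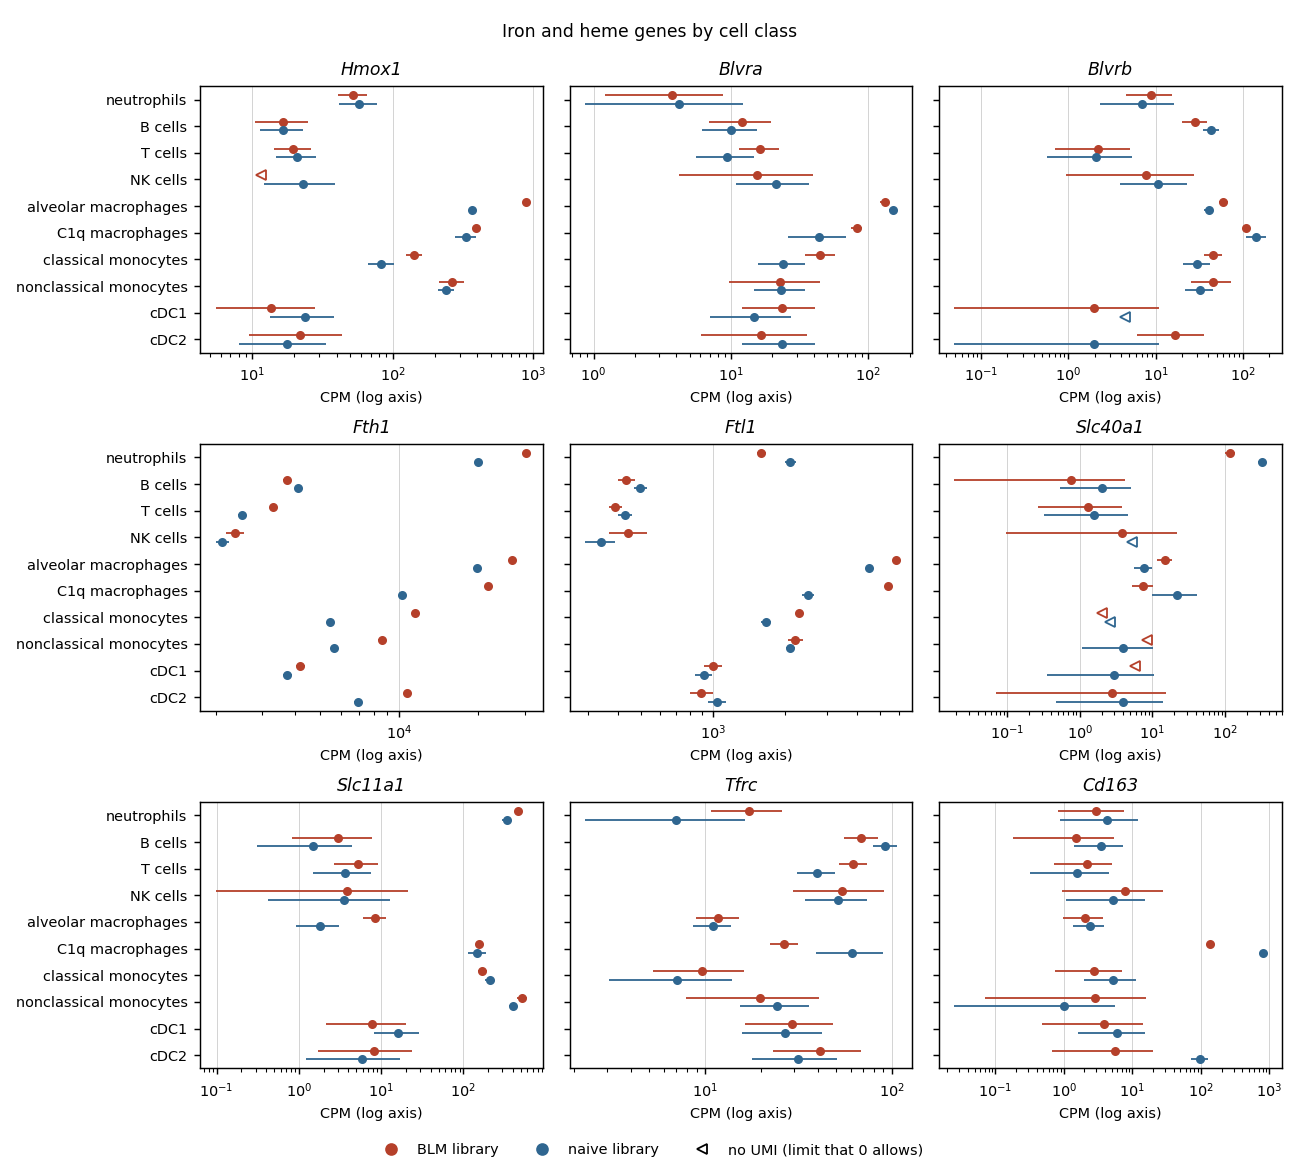
Level of each of the 9 genes (CPM, log axes that differ between panels) in each class in the BLM and naive libraries, with 95% Poisson intervals (counting error only, hidden by the point where narrow). An open triangle marks a class with no UMI, at the level that a count of 0 allows, and Slc40a1 is highest in neutrophils of both libraries while Cd163 is highest in C1q macrophages.

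Hmox1 (GRCm38, the build of all positions, chr8:75093621-75100589, plus strand) was a gene of macrophages and monocytes in both libraries. In BLM, Hmox1 stood at 887 CPM in alveolar macrophages, 396 in C1q macrophages, 265 in nonclassical and 142 in classical monocytes, and 52.1 in neutrophils. In naive lungs the same classes held 368, 333, 241, 83.1 and 57.6 CPM. The order of these 5 classes was therefore the same in both, although in naive the intervals of the 2 macrophage classes overlapped, as did those of classical monocytes and neutrophils. B, T and NK cells and both cDC classes held 23.7 CPM or less. A Hmox1 UMI was seen in 69.4% of BLM and 68.4% of naive alveolar macrophages, and in 3.52% and 3.78% of B cells, a class that should lack the gene. Median depths were 13566 and 9847.0 UMIs in the alveolar macrophages and 1713.0 and 1963.5 in the B cells. With each cell thinned to 1000 UMIs the shares were 23.0% and 22.0% of alveolar macrophages and 1.62% and 1.45% of B cells. The share of alveolar macrophages with a Hmox1 UMI thus hardly differed between the libraries.

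The level of Hmox1 did differ there, and much of the BLM Hmox1 lay in a minority of cells. The alveolar macrophages held 4393 Hmox1 UMIs in BLM and 2470 in naive, which gave 2.41-fold more in BLM (log2 1.27, interval 1.20 to 1.34). The median cell had 1.16 Hmox1 UMIs per 10000 of its own in BLM and 1.37 in naive, and the upper quartile was 3.56 and 3.53. Only the upper tail parted, with a 90th percentile of 13.8 against 8.96 and a 99th of 104 against 28.7. Cells with 10 or more Hmox1 UMIs per 10000, called Hmox1-high cells here, were 53 of 363 in BLM (14.6%, exact interval 11.1 to 18.7) and 55 of 656 in naive (8.38%, 6.38 to 10.8). They held 84.9% and 47.7% of the class's Hmox1 UMIs, and a single BLM cell held 458. The other alveolar macrophages held 163 CPM in BLM and 210 in naive. These cells were set apart by Hmox1 itself, which caps the level in both libraries, so nothing is read from their ratio.

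In the other classes Hmox1 stayed within 2-fold. The log2 ratio was 0.25 (-0.00 to 0.51) in C1q macrophages, 0.14 (-0.22 to 0.49) in nonclassical monocytes and 0.78 (0.42 to 1.14) in classical monocytes. The upper tail was present there too. The Hmox1-high cells were 27 of 478 C1q macrophages in BLM (5.65%) and 6 of 73 in naive (8.22%), 9 of 148 and 7 of 211 nonclassical monocytes, and 1 of 273 and 2 of 236 classical monocytes. In the nonclassical monocytes these cells held 73.4% of the Hmox1 UMIs in BLM and 73.3% in naive, and the median cell held 0. The Hmox1 levels of nonclassical monocytes thus rest largely on few cells. In the classical monocytes the Hmox1-high cells held 38.5% and 41.5%, so most of the Hmox1 UMIs there lay in other cells. NK cells held 0 Hmox1 UMIs in BLM and 13 in naive.

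The Hmox1-high cells also held much of the Slc40a1, the exporter of the iron that heme oxygenase frees. In BLM alveolar macrophages 53 of 73 Slc40a1 UMIs lay in them (59.9 CPM against 4.92 in the other cells, log2 3.61, interval 2.84 to 4.43). In naive alveolar macrophages 23 of 51 did (40.1 against 4.56 CPM, log2 3.14, 2.28 to 3.99). In BLM C1q macrophages 15 of 37 did (41.5 against 4.70 CPM, log2 3.14, 2.09 to 4.15), whereas the 6 naive Hmox1-high C1q macrophages held 0 of 9. The share of cells with a Slc40a1 UMI was 17% of Hmox1-high against 5.48% of other BLM alveolar macrophages, 10.9% against 4.49% in naive, and 25.9% against 3.10% in BLM C1q macrophages. Single cells weighed heavily, since 1 BLM alveolar macrophage held 27 Slc40a1 UMIs together with the 458 of Hmox1, and 1 naive alveolar macrophage held 16. Without the cell with most Slc40a1 the log2 differences were 2.63 (1.73 to 3.55), 1.45 (0.01 to 2.68) and 2.46 (1.16 to 3.64) in the same order. By fold with all cells counted, Slc40a1 ranked 3 of 9255 genes in BLM alveolar macrophages and 10 of 9916 in naive, although the naive rank rests on the cell with 16 UMIs, without which the difference fell to the 1.45 above. In these libraries 2.45% and 2.23% of genes were 2-fold or more higher in the Hmox1-high cells and 6.82% and 8.22% were lower.

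The ferritin genes were higher in the Hmox1-high cells as well in alveolar macrophages of both libraries and BLM C1q macrophages, by less than 2-fold. Naive C1q macrophages differed for Fth1, which was not higher in their Hmox1-high cells. The other cells there held 10312 CPM of Fth1 against 10246 over the whole class, and 2428 CPM of Ftl1 against 2490. In BLM alveolar macrophages Fth1 stood at 38901 CPM in Hmox1-high cells and 24149 in the others (log2 0.69, 0.67 to 0.71) and Ftl1 at 8845 and 5116 (0.79, 0.75 to 0.83). In naive alveolar macrophages the log2 differences were 0.23 and 0.24, and in BLM C1q macrophages 0.39 and 0.61. Nonclassical monocytes showed more, with Fth1 at log2 1.92 in BLM (9 cells) and 1.5 in naive (7 cells), and Ftl1 at 1.34 and 1.31. Cd163 was higher in the Hmox1-high C1q macrophages, at 559 against 106 CPM in BLM (log2 2.40, 2.16 to 2.64) and 2512 against 663 in naive (1.92, 1.54 to 2.29). The naive value comes from 6 such cells. A single BLM C1q macrophage held 88 of the 696 Cd163 UMIs, and the ratio was not computed without it. Both genes were also higher in C1q macrophages with the perivascular genes described below, and the part of that split was not tested. In BLM alveolar macrophages the Hmox1-high cells were also the deeper ones, with a median of 17498 UMIs against 12876 (10751 against 9729.0 in naive), and the part of depth in these differences was not tested. The genes that led the naive Hmox1-high alveolar macrophages by fold included the endothelial genes Ccl21a, Mmrn1, Aqp1 and Cldn5. Of 50 Ccl21a UMIs 49 lay in 1 cell, which held 44 Hmox1 and 0 Slc40a1 UMIs, and the part of such cells was not tested.

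**Figure D3:**
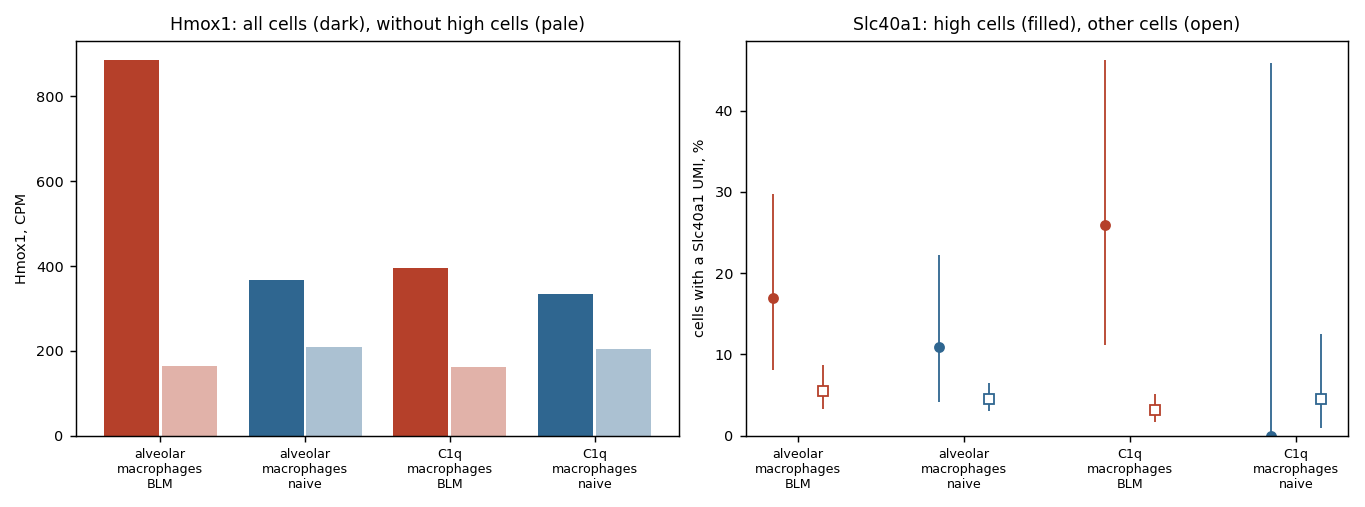
Left, Hmox1 level (CPM) in alveolar and C1q macrophages of each library over all cells (dark bars) and without the cells with 10 or more Hmox1 UMIs per 10000 (pale bars). Right, share of cells (%) with a Slc40a1 UMI in those Hmox1-high cells (filled points) and in the other cells (open squares), with exact 95% intervals, showing 17% against 5.48% in BLM alveolar macrophages.

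Blvra (chr2:127070665-127097084, plus strand), the main biliverdin reductase of adult tissue, had its highest levels in alveolar macrophages, at 132 CPM in BLM and 151 in naive (log2 -0.19, -0.34 to -0.05, and -0.02 on the TMM scale). C1q macrophages held 82.0 and 43.7 CPM (0.91, 0.23 to 1.68, from 413 and 18 UMIs) and classical monocytes 44.4 and 23.9 (0.90, 0.23 to 1.60). Neutrophils held 3.72 and 4.21 CPM, the lowest level of any class in both libraries. Blvrb (chr7:27447978-27466144, plus strand), which also acts as a flavin reductase, was led by C1q macrophages, at 110 CPM in BLM and 143 in naive (-0.39, -0.78 to 0.02). Alveolar macrophages held 59.8 and 40.9 CPM (0.55, 0.30 to 0.79). The reductases thus did not share a leading class, and neither reached 2-fold in any class with enough UMIs. B cells held 28.5 CPM of Blvrb in BLM and 43.5 in naive (-0.61, -1.20 to -0.04). In naive, 31 of the 87 UMIs lay in 12 B cells with 2 or more cell-cycle genes, and the other B cells held 29.6 CPM in BLM and 30.1 in naive.

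Ferritin heavy chain (Fth1, chr19:9980598-9985098, plus strand), the subunit that oxidises iron for storage, was abundant in every class and most so in phagocytes. Neutrophils held 30435 CPM of Fth1 in BLM and 19919 in naive, so that 3.04% and 1.99% of all neutrophil UMIs were Fth1. Alveolar macrophages followed with 26783 and 19681 CPM and C1q macrophages with 21693 and 10246. These 3 classes led in both libraries, and the naive intervals of neutrophils and alveolar macrophages overlapped. T, B and NK cells were lower, between 2121 CPM in naive NK cells and 4122 in naive B cells.

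Fth1 was higher in BLM in 9 of 10 classes, all but the B cells. The difference reached 2-fold in C1q macrophages (log2 1.08, 1.04 to 1.13) and in classical monocytes (11478 against 5428 CPM, 1.08, 1.04 to 1.12). It was 0.61 in neutrophils (0.58 to 0.64), 0.61 in nonclassical monocytes (0.55 to 0.67), 0.63 in cDC2 (0.56 to 0.69) and 0.44 in alveolar macrophages (0.43 to 0.46). B cells held 3725 CPM in BLM and 4122 in naive (-0.15, -0.20 to -0.10). Per cell, the median Fth1 share moved the same way, from 98.8 UMIs per 10000 in naive to 184 in BLM C1q macrophages, from 177 to 269 in neutrophils and from 187 to 246 in alveolar macrophages. The classical monocytes moved less, from 46.1 to 59.8, and the 28 BLM cells with most Fth1 UMIs (of 273) held 50.4% of the class's total against 29.2% in the 24 top naive cells (of 236). Their log2 ratio was 0.71 with all cells weighted equally and 0.34 with classes taken from clusters, so the 2-fold call there depends on where the class ends. Macrophage genes moved with it in this class, with the 6 scar-associated genes at 2075 CPM in BLM and 178 in naive and the 12 alveolar macrophage markers at 3714 and 1624, and their part was not tested.

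Ferritin light chain (Ftl1, chr7:45457944-45459884, minus strand), which favours mineral formation inside the shell, was led by alveolar macrophages, at 5782 CPM in BLM and 4465 in naive (log2 0.37, 0.35 to 0.40). With classes from clusters, C1q macrophages led in BLM instead, at 5258 CPM against 5235. C1q macrophages held 5352 CPM in BLM and 2490 in naive (1.10, 1.01 to 1.20), and classical monocytes 2293 and 1667 (0.46, 0.38 to 0.54). In C1q macrophages both chains were therefore about equally higher in BLM. The 12 alveolar macrophage markers moved with them in this class, at 2908 CPM in BLM and 1191 in naive, and their part was not tested. In neutrophils the chains parted, with Fth1 higher and Ftl1 lower in BLM, at 1589 CPM against 2100 (-0.40, -0.50 to -0.31). The same signs were seen in cDC2, where Ftl1 was -0.22 (-0.42 to -0.01), and in T cells, where it was -0.13 (-0.27 to 0.01) beside an Fth1 ratio of 0.40. The median neutrophil held 12.6 Ftl1 UMIs per 10000 in BLM and 18.7 in naive. Nonclassical monocytes held 2203 and 2104 CPM (0.07, -0.05 to 0.19). With no cells left out for doublet scores, the C1q ratios were 0.91 for Fth1 and 0.96 for Ftl1, just under 2-fold.

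Ftl1 has a near-identical copy, Ftl1-ps1, and reads can be split between them. Of the aligned 910 bases of their transcripts (968 and 938 bases long) 906 were identical (99.6%), but of the last 100 columns of the alignment, gaps included, 28 differed. The copy holds the same hairpin as Ftl1, at chr13:74406434-74406450 on the plus strand. The copy took between 20.1% and 26.5% of the UMIs of the pair in each class and library. Summed over both, C1q macrophages held 6950 CPM in BLM and 3387 in naive (log2 1.04, 0.96 to 1.12) and neutrophils 2031 and 2800 (-0.46, -0.55 to -0.38), so that the opposite directions held. The summed ratio was -0.26 (-0.43 to -0.08) in cDC2 and -0.20 (-0.32 to -0.08) in T cells.

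**Figure D4:**
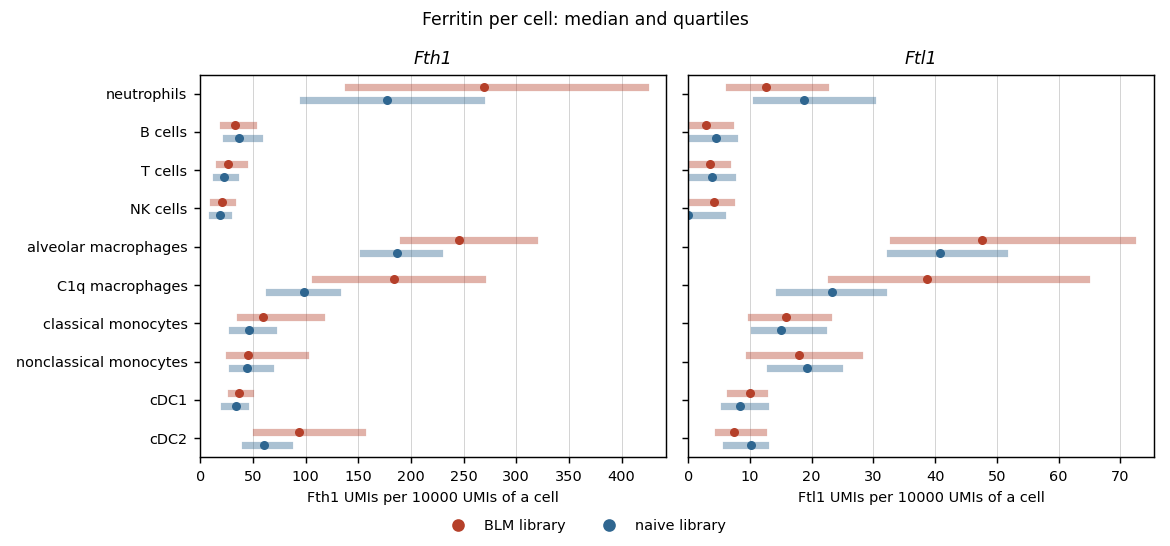
Fth1 (left) and Ftl1 (right) UMIs per 10000 UMIs of a cell, by class, with points at the median cell and bars from the lower to the upper quartile in the BLM and naive libraries. In neutrophils the BLM median is above the naive one for Fth1 (269 against 177) and below it for Ftl1 (12.6 against 18.7).

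Ferroportin (Slc40a1, chr1:45908068-45926523, minus strand) was found mainly in neutrophils, with far lower levels in macrophages. Neutrophils held 116 CPM in BLM and 323 in naive (156 and 230 UMIs), 2.78-fold less in BLM (log2 -1.48, -1.78 to -1.18). A Slc40a1 UMI was seen in 12.7% of BLM and 33.9% of naive neutrophils, against 0.168% and 0.504% of B cells. Median depths of the neutrophils were 1328.0 and 1579.0 UMIs, and the shares after thinning to 1000 UMIs were 10.3% and 24.5%. No neutrophil held more than 5 UMIs, so the level was spread over many cells. Under the alternatives tried the ratio stayed between -1.53 and -1.37.

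Macrophages held little Slc40a1. Alveolar macrophages had 14.7 CPM in BLM and 7.59 in naive (73 and 51 UMIs, log2 0.96, 0.42 to 1.5), and without the Hmox1-high cells the levels were 4.92 and 4.56 (0.11, -0.80 to 0.99). C1q macrophages went the other way, at 7.34 CPM in BLM and 21.9 in naive (37 and 9 UMIs, -1.57, -2.65 to -0.34). The 9 naive UMIs came from 3 cells, and 1 of these held 5, so this ratio rests on few cells. Neutrophil markers in the C1q macrophages moved the same way, at 288 CPM in BLM and 1006 in naive, and their part was not tested. Classical monocytes held 0 UMIs in both libraries, which allows up to 2.05 CPM in BLM and 2.65 in naive, and every other class held 4.56 CPM or less.

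Slc11a1 (chr1:74375195-74386062, plus strand) was highest in monocytes and neutrophils. Nonclassical monocytes held 522 CPM in BLM and 398 in naive (log2 0.39, 0.13 to 0.64) and neutrophils 467 and 338 (0.47, 0.25 to 0.69), with overlapping intervals between these classes in each library. Classical monocytes held 171 and 209 CPM (-0.29, -0.56 to -0.03) and C1q macrophages 154 and 148 (0.05, -0.33 to 0.45). The 2 macrophage classes thus differed in this gene, since alveolar macrophages held only 8.48 CPM in BLM and 1.79 in naive. The latter ratio, from 42 and 12 UMIs, was 4.75-fold (2.25, 1.30 to 3.31). B cells, which should lack the gene, held 3 and 1.5 CPM, so the naive alveolar macrophages stood at the background. A Slc11a1 UMI was seen in 10.7% of BLM and 1.68% of naive alveolar macrophages against 0.671% and 0.378% of B cells, and no BLM alveolar macrophage held more than 2. With no cells left out for doublet scores the log2 ratio was 0.92, and with classes from clusters it was 3.30. The 9 C1q macrophage markers moved with it, since these alveolar macrophages held 614 CPM of them in BLM against 156 in naive (the C1q class itself held 11561 and 14602), and their part was not tested.

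The transferrin receptor (Tfrc, chr16:32608920-32632794, plus strand) followed another order, with the highest level in B cells in both libraries. The interval of the B cells overlapped that of the next class, which was T cells in BLM and C1q macrophages in naive. B cells held 68.3 CPM in BLM and 92.1 in naive (log2 -0.43, -0.81 to -0.06), T cells 62.0 and 39.6 (0.65, 0.23 to 1.07) and NK cells 54.0 and 51.1 (0.08, -0.96 to 1.04). Alveolar macrophages held 11.7 and 11.0 CPM (0.09, -0.43 to 0.60), which is low beside their ferritin rank. C1q macrophages ranked below the lymphocytes and both cDC classes in BLM, at 26.4 CPM, and next to B cells in naive, at 60.7 with an interval that overlaps that of the NK cells (133 and 25 UMIs, -1.20, -1.83 to -0.52). With classes from clusters this ratio was -0.86. Of the genes with an IRE hairpin, the class had the ferritin genes higher and Tfrc and Slc40a1 lower in BLM, the last from 9 naive UMIs. The hairpin lies in the 5′ UTR of the ferritin genes and Slc40a1 and in the 3′ UTR of Tfrc. UMI counts do not read translation, and whether IRE binding differed was not measured. Neutrophils held 17.1 CPM of Tfrc in BLM and 7.02 in naive, from 23 and 5 UMIs (1.29, -0.14 to 3.04), a call whose interval includes 0 and whose ratio was 0.52 with no cells left out for doublet scores.

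Within the T cells, Tfrc was higher in cells with a Foxp3 UMI, the transcription factor of regulatory T cells. In BLM, 82 such cells held 110 CPM and the other 715 held 53.0 (log2 1.05, 0.48 to 1.59). In naive, 24 such cells held 119 CPM, from 12 UMIs, and the other 644 held 35.2 (1.76, 0.74 to 2.66). T cells with 2 or more cell-cycle genes held 116 CPM against 53.3 in BLM (47 cells, 1.12, 0.54 to 1.68) and 52.8 against 38.2 in naive (20 cells, 0.47, -0.66 to 1.44). Cycling alveolar macrophages held 21.2 against 7.92 CPM in BLM (1.42, 0.63 to 2.22) and 9.99 against 11.2 in naive.

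Cd163 (chr6:124304656-124330527, plus strand) was nearly confined to C1q macrophages, with naive cDC2 as the exception. C1q macrophages held 138 CPM in BLM and 804 in naive (696 and 331 UMIs), 5.82-fold less in BLM (log2 -2.54, -2.73 to -2.35). A Cd163 UMI was seen in 11.3% of BLM and 54.8% of naive C1q macrophages, against 0.336% and 0.882% of B cells. The macrophages had median depths of 9547.5 and 5091.0 UMIs, so that the deeper library had the lower share. In cDC2 the levels were 5.51 CPM in BLM and 95.8 in naive (2 and 49 UMIs, -4.12, -7.21 to -2.19), with 81.6% of the naive UMIs in 8 of 72 cells. The cDC2 gate uses Mgl2 and Clec10a, lectins that macrophages can also express, and the part of macrophages in that class was not tested. All other compared classes held 7.71 CPM or less.

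Nearly all Cd163 lay in C1q macrophages with perivascular genes. Cells with 2 or more of Lyve1, Folr2, Mrc1, Cbr2, Gas6 and Timd4, genes of macrophages that lie along vessels, were 190 of 478 in BLM and 55 of 73 in naive, and held 685 of 696 and 324 of 331 Cd163 UMIs. Among these cells the level was still lower in BLM, at 292 CPM against 1018 (log2 -1.80, -2.0 to -1.61). Their median depths were 11682 UMIs in BLM and 5091.0 in naive, and since deeper cells show 2 of the genes more readily, the part of depth in this gate was not tested. Tfrc there stood at 41.3 CPM in BLM and 78.6 in naive (-0.93, -1.57 to -0.23), below the 2-fold limit, and Slc40a1 at 9.37 and 28.3 (-1.59, -2.77 to -0.29, 22 and 9 UMIs). Fth1 (1.11, 1.06 to 1.17) and Ftl1 (1.09, 0.99 to 1.20) kept the ratios of the whole class. Hmox1 was higher in the perivascular cells than in the other C1q macrophages of either library, at 562 against 251 CPM in BLM and 421 against 32.1 in naive, the last from 3 UMIs.

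The BLM C1q macrophages also carried genes of scar-associated macrophages. Cells with 3 or more of Spp1, Gpnmb, Arg1, Fabp5, Cd63 and Mmp12 were 404 of 478 in BLM and 4 of 73 in naive, so this split could be read in BLM only. There Hmox1 stood at 420 CPM in the cells with 3 or more and 114 in the other 74 (log2 1.89, 1.46 to 2.35), and Ftl1 at 5603 and 2405 (1.22, 1.13 to 1.31). Cd163 stood at 118 and 374 (-1.66, -1.93 to -1.39), Slc11a1 at 143 and 275 (-0.94, -1.24 to -0.64) and Fth1 at 22262 and 15036 (0.57, 0.53 to 0.60). Slc40a1 was 3.07-fold higher from 36 and 1 UMIs, with an interval that includes 0. In all, 4 of the 9 genes differed 2-fold or more, 3 higher (11.0% of 9416 genes were) and 1 lower (6.74% were). Cells with 3 or more of the genes were deeper, at a median of 10804 UMIs against 4982.5, and the part of depth in the split was not tested.

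The cells with fewer than 3 scar-associated genes, 74 in BLM and 69 in naive, allowed a comparison at like depth (medians of 4982.5 and 5091.0 UMIs). Ftl1 stood at 2405 CPM in BLM and 2464 in naive (log2 -0.03, -0.17 to 0.10), whereas the ratio over all C1q macrophages was 1.10. Fth1 was 15036 and 9734 (0.63, 0.57 to 0.69), below its ratio of 1.08 over the whole class. Cd163 was 374 and 834 (-1.16, -1.45 to -0.87), lower in BLM here too. Hmox1 was 114 and 334 (-1.56, -2.08 to -1.05), while the interval of its ratio over all C1q macrophages reached 0. The size depends on the limit, since Hmox1 was -1.25 (-2.03 to -0.53) in cells with fewer than 2 of the genes and -0.74 (-1.07 to -0.40) with fewer than 4. Ftl1 was 0.01 and 0.17 with those limits, Fth1 0.53 and 0.56, and Cd163 -1.80 and -1.10. Of the other genes, with fewer than 3, Slc11a1 was 0.78 (0.31 to 1.26), Blvrb -0.73 (-1.37 to -0.11) and Blvra 0.61 (-0.46 to 1.73). Tfrc was -2.08 from 6 and 24 UMIs and Slc40a1 -3.25 from 1 and 9. Cells with perivascular genes were 190 of 478 C1q macrophages in BLM and 55 of 73 in naive, and the part of this mix in these ratios was not tested.

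**Figure D5:**
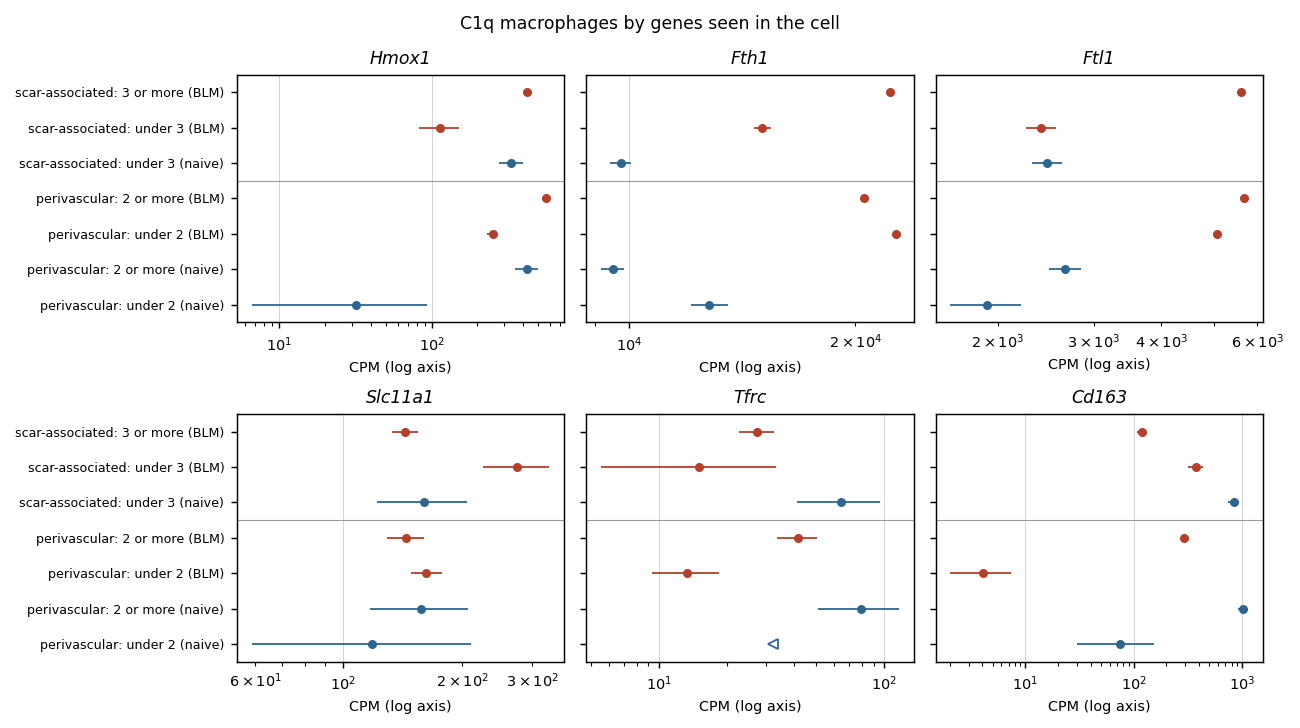
Level (CPM, log axes that differ between panels) of 6 of the genes in C1q macrophages of the BLM (red) and naive (blue) libraries, split by scar-associated genes seen in the cell (3 or more) or perivascular genes (2 or more), with 95% Poisson intervals. In cells with fewer than 3 scar-associated genes Ftl1 stands at 2405 CPM in BLM and 2464 in naive, and Cd163 is lower in BLM in each matched pair. The open triangle marks no UMI, at the level that a count of 0 allows.

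A list of 50 other iron and heme genes was counted in the same classes. Of these, 40 had 20 or more UMIs in C1q macrophages, 4 were 2-fold or more higher and 6 lower, against the 11.8% and 14.1% of all genes there. The higher genes were Hp, which encodes haptoglobin (87.1 against 17 CPM, log2 2.36), Alas1, the first enzyme of heme synthesis (76.4 against 19.4, 1.98), and, with intervals that include 0, the metal importer Slc39a8 (1.60) and the liver X receptor Nr1h3 (1.31). The lower genes were the ferroxidase gene Cp (32.6 against 126 CPM, -1.96), the heme sensor and Hmox1 repressor Bach1 (208 against 554, -1.41), the ferrireductase Steap4 (9.33 against 72.9, -2.97), the iron importer Slc11a2 (31.4 against 87.5, -1.48), the mitochondrial iron carrier Slc25a28 (-1.07) and, with an interval that includes 0, Alad (-1.44). By role, the iron uptake list had 6 genes with enough UMIs, of which 1 was higher, 2 lower and 3 within 2-fold, and the iron export list had only Cp. The median log2 ratio of the 40 genes was -0.01.

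In alveolar macrophages 40 of the 50 genes had enough UMIs, with 2 higher and 1 lower, against 5.22% and 9.77% of all genes. Hp stood at 33.1 CPM in BLM and 5.51 in naive (log2 2.59, 2.07 to 3.14), the ferrireductase Steap3 at 30.9 and 6.25 (2.31, 1.8 to 2.83), and Ppox of heme synthesis at 3.64 and 8.48 (-1.22, -2.08 to -0.44). Hp was thus called in both macrophage classes. Neutrophils had 25 genes with enough UMIs, with Ltf, which encodes lactoferrin of the granules, higher (54.3 against 23.9 CPM, 1.19) and the heme exporter Flvcr1 (32.0 against 66.0, -1.04) and Fech (7.44 against 19.7, -1.40) lower, against 4.27% and 6.71% of all genes. Classical monocytes had 34, with 5 higher (Steap3, Slc39a14, Abcg2, Alas1 and Isca2, log2 1.02 to 1.87) and 0 lower, against 6.56% and 4.81%. There were 0 calls in nonclassical monocytes (28 genes) and T cells (34), 1 lower in B cells (32, against 4.66% of all genes), 4 lower in NK cells (20, against 7.46%), 2 lower in cDC1 (22, against 9.49%), and 2 higher and 3 lower in cDC2 (19, against 6.89% and 8.88%).

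Across 22 profiles of class and library with 50 or more cells, the genes with the most similar pattern were found by Pearson correlation of log2 (CPM plus 10) among 9399 genes. These correlations describe the same 2 libraries and share their depth. Hmox1 was most like Plod3 (0.92), Itgb5 and Lyz2 (both 0.91), and among the 9 genes its closest was Ftl1 (0.87). Fth1 was most like Olr1, Tlr2 and Clec5a (all 0.93). Ftl1 was most like its own copy (0.99), Creg1 (0.96) and Dstn (0.94). Slc40a1 followed S100a8 and Mmp9, markers of the neutrophil class (0.94 and 0.93), and Mirt2 (0.94), whereas Pla2g7 and Cd300lb were among the genes most like Slc11a1 (both 0.93). Cd163 was most like Ccl7 (0.91), Pf4 and Col14a1 (both 0.90). Blvra was most like Vps35 (0.94), Mgat4b (0.93) and Lrp12 (0.92), Blvrb like Bri3 (0.89), Rbbp9 (0.88) and Arl8a (0.84), and Tfrc like Elmo1 and Hmgb1 (both 0.85) and Bach2 (0.84).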

How the data were processed

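Cells of 2 libraries (1 BLM, 1 naive, each a pool of 3 mice) were analysed. The authors deposited whole-number UMI counts per cell and gene, with no normalisation, from the BD Rhapsody WTA analysis pipeline 1.8 with GRCm38 and GENCODE release M19 per the file headers, after its error correction of UMIs. Value columns of other samples numbered 0.

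A barcode passed with at least 200 genes and no more than 15% of UMIs from mitochondrial genes (4526 BLM, 3925 naive). Scrublet's automatic thresholds called 8 (0.177%) and 61 (1.55%) doublets, so the highest 3% of scores in each library were left out instead (136 and 118 cells). For each class, UMIs per 10000 of its markers were taken as log(1 + x), divided by the 90th percentile of the cells above 0, capped at 1 and averaged. A cell took the class with the highest score if it was 0.15 or more and led the next by 0.05, and 241 BLM and 94 naive cells lay within 0.02 of that lead. Clusters per library (2000 variable genes without the 9 genes, 30 dimensions, 15 neighbours, resolution 1.5) served as an alternative.

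Counts were summed per class. CPM had exact Poisson intervals, log2 ratios exact conditional intervals and shares Clopper-Pearson intervals, all at 95%, and the limit that a count of 0 allows was 3 counts. Scales by TMM (edgeR 4.0.16) and DESeq2 1.42.0 size factors were alternatives, with Python 3.11.15, numpy 2.4.6, pandas 2.3.3, scipy 1.17.1, scanpy 1.11.5, matplotlib 3.10.9 and R 4.3.3. The ratio and its interval were run on simulated sums drawn as independent Poisson counts around the class means. Such sums leave out UMIs that gather in single cells, so they do not show how well the intervals cover in the real data. The genes named are the 9 members in every class, every gene of the other iron and heme lists 2-fold apart in a macrophage or neutrophil class, the 3 genes most like each member, and markers. A few items are not reported here. Ccl21a, Mmrn1, Aqp1 and Cldn5 and the classical monocyte genes were named after their values were seen. The members, lists, splits and limits were chosen with earlier results of these data known. Hairpins were read from GRCm38 with GENCODE M21.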

Additional observations from a re-analysis of the deposited data

Results flagged for a closer look

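For 4 of the genes the log2 ratio of BLM over naive had opposite signs in 2 classes, with counting intervals on opposite sides of 0 under CPM, TMM and DESeq2 scaling. Ftl1 was 1.10 in C1q macrophages and -0.40 in neutrophils. Slc40a1 was 0.96 in alveolar macrophages and -1.57 in C1q macrophages, the latter from 9 naive UMIs. Slc11a1 was 2.25 in alveolar macrophages and -0.29 in classical monocytes. Tfrc was 0.65 in T cells and -1.20 in C1q macrophages. With 1 library per group, none of these differences between classes was tested.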

How the results depend on the processing

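Of the 11 calls, all were kept under 500 genes per barcode, a mitochondrial limit of 10%, TMM, DESeq2 size factors and no minimum of UMIs. Without the Hmox1-high cells, an alternative chosen after seeing the data, 10 were kept and Hmox1 in alveolar macrophages was -0.36, a value that leaving out cells by their own Hmox1 largely fixes (-0.21 and 0.05 with limits of 5 and 20 per 10000). A wider gate kept 9 of the 10 that could be computed, clusters kept 8, and cells weighted equally kept 7, with Hmox1 in alveolar macrophages at 0.96, Fth1 and Ftl1 in C1q macrophages at 0.97 and 0.98 and Fth1 in classical monocytes at 0.71. With no cells left out for doublet scores 7 were kept and the genes 2-fold higher numbered 2 in place of 6. With no minimum of UMIs the genes 2-fold higher numbered 9 in place of 6 and those lower 8 in place of 5, since more pairs of few UMIs entered. After thinning to 1000 UMIs, 59 of 180 shares were 10% or more, against 94 before. The TMM scale between the libraries was -0.18 (log2) in alveolar and -0.14 in C1q macrophages, which moved their ratios up by that much. With 2 or more scar-associated genes in place of 3, Hmox1 and Ftl1 in BLM C1q macrophages were 1.54 and 1.22 and Cd163 -0.97, and with 4 or more 1.19, 1.12 and -2.17. Slc40a1 had no value with 2 or more, as the other cells held 0 UMIs. Summing Ftl1 with its copy, also chosen after seeing the data, kept its call. The cause of these changes was not tested. No paired analysis was possible because each group was 1 library, and leaving out a replicate could not be run for the same reason. Depth limits all genes but Fth1, Ftl1 and Tfrc outside their leading classes, as 29 of 90 pairs held fewer than 20 UMIs.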

Other observations

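Some further genes, named after their values were seen, also had higher levels in the Hmox1-high cells. Srxn1 and Slc7a11, targets of the oxidative stress factor Nrf2, had log2 differences over the other cells of 1.51 and 1.38 in BLM alveolar macrophages, 1.22 and 2.63 in naive alveolar macrophages, and 1.83 and 0.87 in BLM C1q macrophages. Gclm and Txnrd1 were looked at together with them and are not reported here, so nothing is read about Nrf2 targets as a set. Of all genes, 2.45% in BLM and 2.23% in naive alveolar macrophages were 2-fold or more higher in the Hmox1-high cells. That share was not computed for C1q macrophages. Spic, from the sensing list, the transcription factor of red-pulp macrophages, had 11 UMIs in the 27 Hmox1-high BLM C1q macrophages and 4 in the other 451 (log2 5.15), and 16 in 7 naive nonclassical monocytes and 13 in the other cells of that class (log2 5.15). In BLM alveolar macrophages Egr1 had 273 UMIs in the 53 Hmox1-high cells and 131 in the other cells (log2 3.26). These are differences within 1 library each, and none was tested.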
